A study of Mus musculus with 14 samples.

Results

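The sites described here are the cytosines whose methylation level varied most between mice in mammary adipose tissue. They were chosen by 1 rule, a standard deviation (SD) of the level of at least 0.1 over all 14 mice, on chromosomes 1 to 19. The rule took 14464 of 72480 autosomal sites, which is 19.96%, and the whole table holds 75761 sites. Because the levels chose these sites, their SDs, levels and counts of calls between groups are given as a description. The fat pad opposite the tumor was measured in female C57BL/6NCrl mice by reduced-representation bisulfite sequencing (RRBS). All mice were 8 weeks old on arrival. The 3 CON-LFD mice were kept on a low-fat diet (10% of calories from fat) and had sham surgery. The remaining mice were made obese on a high-fat diet (60% of calories from fat) over 15 weeks. The 4 DIO-HFD mice then stayed on it and had sham surgery. The 3 DIO-LFD mice changed to the 10% diet after sham surgery, and the 4 DIO-VSG mice changed to it after vertical sleeve gastrectomy. All 14 mice were injected with E0771 mammary tumor cells 7 weeks after surgery, and tissue was taken 4 weeks later. No read counts accompany the levels, and depth is therefore unknown.

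DNA methylation is a methyl group placed on cytosine, in mammals mostly where the next base is guanine (a CpG). Each DNA molecule is methylated or not at a given CpG, so an intermediate level in a tissue is a mixture of molecules, which can come from different cells or from the 2 parental alleles. CpG islands are CpG-rich stretches, often at gene promoters, that are mostly unmethylated in normal tissue. RRBS cuts DNA with MspI at the sequence CCGG and reads the ends of short fragments. A CpG within CCGG therefore lies at the cut end of a fragment. The overhang left by the enzyme is filled in with supplied cytosines during library preparation, and the part of this step in the values below was not tested.

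The most variable sites all lay within CCGG. The 60 bases around 6 of the 8 sites with the largest SD, and 30 bases at Vps54, are shown because they share this sequence. Capitals mark the measured CpG, and the bases are those of the plus strand of GRCm38 (mm10), read from the RefSeq chromosomes.
Tiparp, chr3:65527977-65528036: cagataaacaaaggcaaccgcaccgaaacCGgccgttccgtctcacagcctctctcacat
Syncrip, chr9:88481682-88481741: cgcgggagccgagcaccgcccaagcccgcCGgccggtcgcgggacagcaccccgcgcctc
Kcnq5, chr1:21961510-21961569: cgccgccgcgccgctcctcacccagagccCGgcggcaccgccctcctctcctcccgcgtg
Slc24a3, chr2:145167621-145167680: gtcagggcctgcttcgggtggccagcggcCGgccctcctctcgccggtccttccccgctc
Ikzf1, chr11:11685635-11685694: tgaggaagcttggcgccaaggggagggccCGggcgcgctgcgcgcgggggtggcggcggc
Vps54, chr11:21239250-21239279: accgggctcggaccCGgcgcgcagggcggc
Trank1, chr9:111312677-111312736: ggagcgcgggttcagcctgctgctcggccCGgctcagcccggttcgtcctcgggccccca

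The fragment that ends at the Tiparp site is shown whole, with the CpG of both ends in capitals, because the levels at its ends mirrored each other. It was chosen after its values were seen.
Tiparp fragment, chr3:65527898-65528008: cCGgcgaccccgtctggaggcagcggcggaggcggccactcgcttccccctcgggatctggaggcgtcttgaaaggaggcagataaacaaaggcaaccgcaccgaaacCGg

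A stretch near Plekhh3 is shown as an example of a dense run of variable sites mostly outside CCGG. Its 17 variable CpGs, in capitals, are among 28 CpGs of the stretch. It was also chosen after its values were seen.
Plekhh3 run, chr11:101164054-101164294: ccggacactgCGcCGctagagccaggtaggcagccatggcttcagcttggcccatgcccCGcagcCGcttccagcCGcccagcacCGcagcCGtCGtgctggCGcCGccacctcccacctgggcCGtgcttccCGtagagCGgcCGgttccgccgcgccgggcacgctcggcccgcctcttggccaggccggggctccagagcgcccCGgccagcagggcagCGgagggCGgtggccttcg

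Variable sites were mostly of intermediate level. Their median SD was 0.125, with the largest at 0.334, and the median SD of the 58016 other autosomal sites was 0.0621. The mean level was 56.5% over the variable sites and 63.2% over the others. A mean level between 30% and 70% was found at 66.3% of variable sites and 32.8% of the others. An SD of at least 0.15 was reached by 3426 sites, at least 0.2 by 431, at least 0.25 by 40 and at least 0.3 by 4. The 2 variable sites nearest the limit, near Ube2e2 and Gsk3a, had SDs of 0.100004 and 0.100006. The 2 nearest sites outside the rule, near Sox5os3 and Arrdc2, had SDs of 0.0999944 and 0.0999993.

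How often sites of like mean level were variable differed within and outside CCGG. The variable sites themselves had a mean level of 55.1% within CCGG and 56.9% outside it. Outside CCGG, 53.0% of sites with a mean level of 40% to 50% and 54.2% of those at 50% to 60% were variable. Within CCGG, 10.8% and 10.6% of the sites in the same classes were variable. At a mean level of 20% to 30% the order turned, with 33.8% within CCGG and 22.1% outside it. Below 10% the shares were 7.74% and 0.737%. CCGG held 20.1% of variable sites (2905 sites), against 33.3% of all autosomal sites. Among the most variable sites this share was higher, at 40.6% for an SD of at least 0.2 (175 of 431 sites) and 85.0% for an SD of at least 0.25 (34 of 40 sites).

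**Figure D1:**
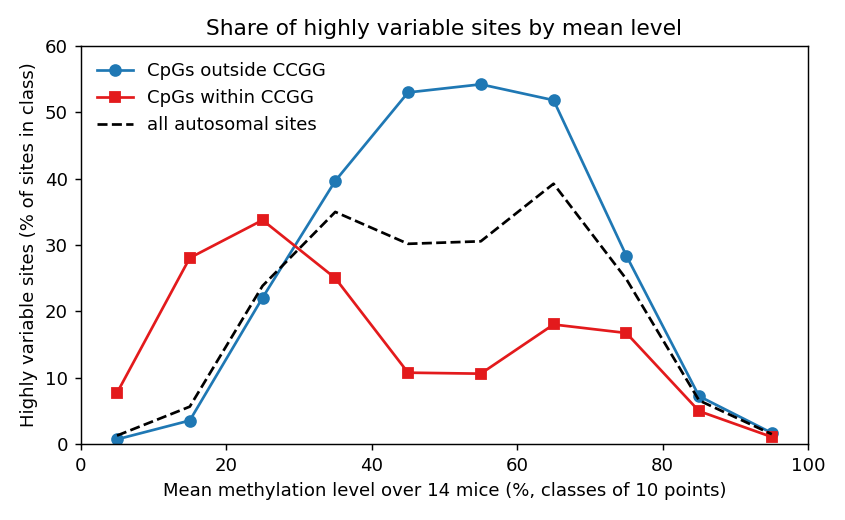
The x axis gives the mean methylation level over 14 mice in classes of 10 percentage points and the y axis the percent of autosomal sites in each class that were highly variable. Outside CCGG (circles) the share peaked at 54.2% for levels of 50% to 60%, where the share within CCGG (squares) was 10.6%.

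Variable sites were spread over genes much as the sites of the table were. Promoters held 24.0% of variable sites and 25.3% of all autosomal sites, exons 31.3% and 30.3%, introns 44.1% and 41.7%, and CpG islands 23.1% and 23.2%. The sequence was masked as a repeat at 17.9% of variable sites and 22.7% of all. The near-equal island shares covered a difference between the kinds of site. Variable sites within CCGG lay in islands at 47.5% and in promoters at 53.0%, and those outside CCGG at 17% and 16.7%. The shares of all sites within and outside CCGG are not set beside these. The difference can therefore not be read as particular to variable sites.

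At several of the most variable sites, mice of the same group reached 0% or 100% while others lay near the middle. The Tiparp site lies at -404 bp from the transcript start of Tiparp, which encodes a mono-ADP-ribosyltransferase. Its SD was 33.4 percentage points. The level was 61.8%, 45.2% and 0% in the CON-LFD mice. It was 47.3%, 51.2%, 51% and 52.9% in the DIO-HFD mice. It was 100%, 42.0% and 100% in the DIO-LFD mice, and 100%, 0%, 100% and 51.9% in the DIO-VSG mice. The DIO-HFD mice thus lay close together, and the range in each of the other groups enclosed all 4 of them. Syncrip encodes an RNA-binding protein, and its site was at 42.9%, 50.7% and 0% in CON-LFD mice. It was at 43.2%, 54.8%, 63.6% and 55.7% in DIO-HFD mice. It was at 100%, 53.1% and 100% in DIO-LFD mice, and at 41.7%, 0%, 64.3% and 95.5% in DIO-VSG mice. The lowest and the highest mouse lay outside DIO-HFD at this site too. The site of Vps54, a subunit of a complex that tethers vesicles at the Golgi, ranged from 41.4% to 53.2% in DIO-HFD mice, from 36.7% to 100% in CON-LFD mice, from 43.5% to 100% in DIO-LFD mice and from 0% to 100% in DIO-VSG mice. The Trank1 site ranged from 43.1% to 54.3% in DIO-HFD mice and from 0% to 100% in DIO-LFD mice.

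At 3 of the other sites of large SD, all DIO-HFD mice lay above all DIO-VSG mice. Kcnq5 encodes a voltage-gated potassium channel, and its site, in coding sequence, was at 84.8%, 55.7%, 36.1% and 60.6% in DIO-HFD mice. It was at 5.33%, 4.65%, 8.16% and 13.3% in DIO-VSG mice, which did not overlap DIO-HFD mice. It was at 10%, 69.1% and 9.21% in CON-LFD mice and at 7.5%, 62% and 3.8% in DIO-LFD mice, so 1 mouse of each of these groups lay within the DIO-HFD range. Ikzf1 encodes Ikaros, a transcription factor of lymphoid cells, and its site was at 75%, 36.4%, 72.4% and 80.95% in DIO-HFD mice. It was at 23.1%, 0%, 19.4% and 33.3% in DIO-VSG mice, again without overlap. The site of Slc24a3, a potassium-dependent sodium and calcium exchanger, lay between 77.6% and 91.7% in DIO-HFD mice and between 30.3% and 71.1% in DIO-VSG mice. The site of Sall3, a zinc finger gene, ranged more widely, from 43.3% to 94.7% in DIO-HFD mice and from 0% to 100% in DIO-LFD mice. Groups that did not overlap between DIO-VSG and DIO-HFD were found at 7.58% of all tested sites and at 1146 variable sites, which is 7.92% of them.

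**Figure D2:**
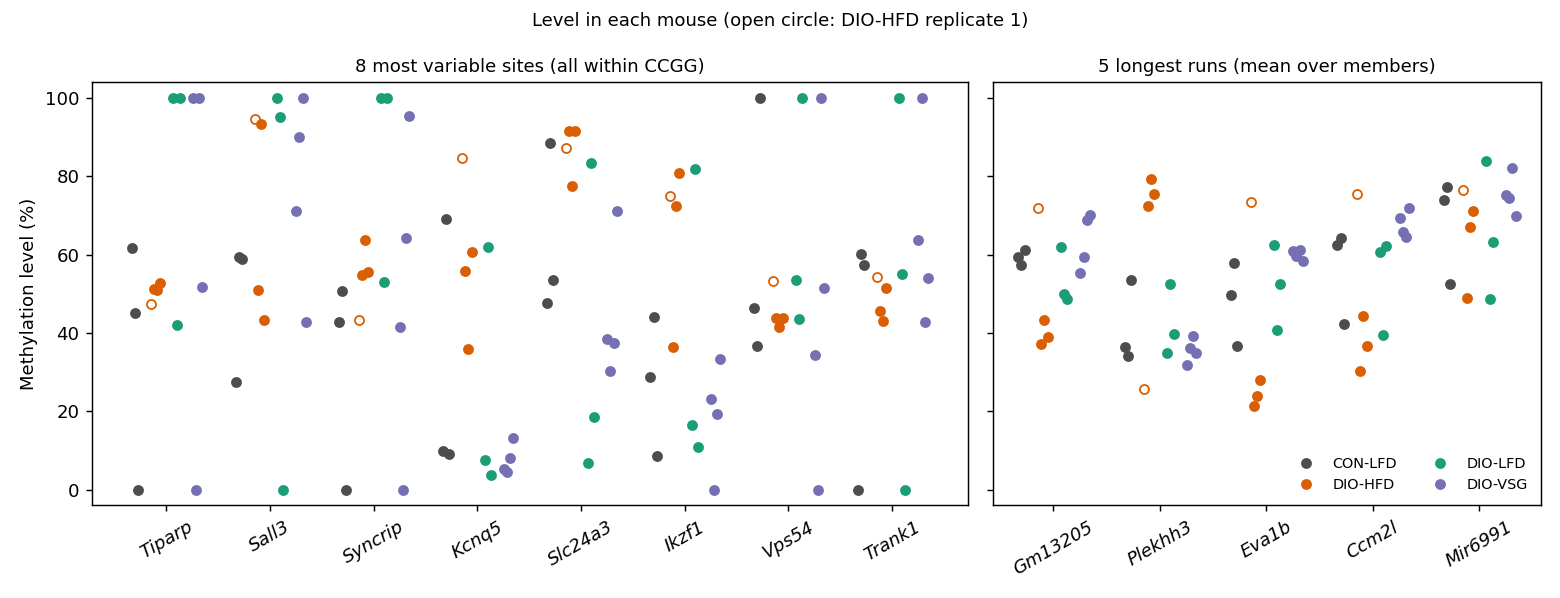
Each circle is the methylation level (%) of 1 mouse, colored by group, with DIO-HFD replicate 1 as an open circle. The left panel shows the 8 most variable sites, at most 1 per gene, and the right panel the mean over the variable sites of the 5 longest runs. At Tiparp the DIO-HFD mice lay between 47.3% and 52.9% while other mice reached 0% and 100%, and at Plekhh3 DIO-HFD replicate 1 was at 25.7% and the other DIO-HFD mice between 72.3% and 79.3%.

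The levels at the 2 ends of an MspI fragment often added up to about 100%. Both ends were variable sites in 542 pairs of consecutive CCGG sequences, with a median distance of 134.5 bp. Over the 14 mice the median correlation between the ends was -0.943, and 374 pairs (69.0%) were below -0.8. The median sum of the levels was 98.6%. The median SD of the sum over mice was 5.37 percentage points, against 13.7 for a single end. These correlations are across mice within a fragment, and pairs share libraries. In 1011 pairs with only 1 end variable the median correlation was -0.0561, the median sum 118.3%, and 30.5% of mouse levels summed to between 90% and 110%. In 5863 pairs with neither end variable the median correlation was -0.514. It was -0.821 for the 2149 of these pairs with both ends in CpG islands, so the mirrored ends were not confined to variable sites. In 133 pairs of variable CCGG sites next to each other that are not the ends of 1 fragment, the median correlation was 0.191.

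Named fragments included mirrored and unmirrored ends. The other end of the Tiparp fragment was at 35.3%, 52.2% and 92.3% in CON-LFD mice and at 49.5%, 44.3%, 44.9% and 44.7% in DIO-HFD mice. It was at 0%, 55.7% and 0% in DIO-LFD mice and at 0%, 100%, 10% and 46.2% in DIO-VSG mice. The ends correlated at -0.995 and summed to 98.5% ± 3.95 (SD, n = 14). For Trank1, whose ends lie 228 bp apart, the correlation was -0.998 and the sum 99.1% ± 1.72 (SD, n = 14). For Syncrip these were -0.931 and 91.3% ± 11.3 (SD, n = 14). The ends at Ikzf1 correlated at -0.08 and summed to 43.3% ± 29.4 (SD, n = 14), and those at Metap1, an aminopeptidase gene, correlated at 0.33. Of the 2905 variable sites within CCGG, 1919 have another end in the table, and for 867 of these (45.2%) an end correlated below -0.8.

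**Figure D3:**
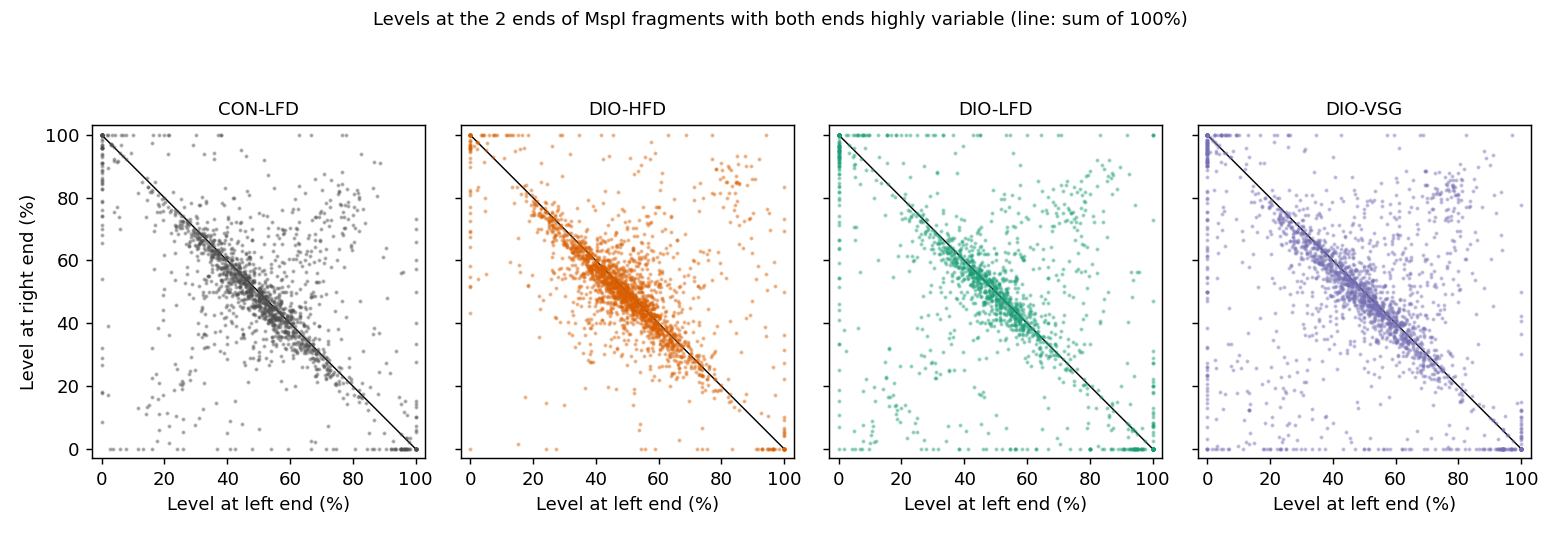
Each point is 1 fragment in 1 mouse, with the methylation level (%) at the left end on the x axis and at the right end on the y axis, for the 542 fragments with both ends highly variable, and the line marks a sum of 100%. Of these mouse levels 70.8% summed to between 90% and 110%, and points at the corners are ends read as fully methylated and fully unmethylated.

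The spread of these fragment ends differed between mice of the same group as well as between groups. Over the 1084 ends, the median SD within the group was 0.0637 in DIO-HFD mice, 0.0818 in CON-LFD mice, 0.105 in DIO-VSG mice and 0.186 in DIO-LFD mice. Levels of exactly 0% or 100% made up 1.75% to 5.17% of ends in single DIO-HFD mice. They made up 2.31% to 9.04% in CON-LFD mice, 7.47% to 26.3% in DIO-LFD mice and 3.87% to 24.0% in DIO-VSG mice. Over all variable sites within CCGG this share was 15.2% in DIO-VSG replicate 2 and 5.30%, 5.75% and 3.44% in replicates 1, 3 and 4. It was 5.47% in DIO-LFD replicate 1 and 14.1% and 15.7% in replicates 2 and 3. The group values thus rest on few mice, and the ends are not replicates of a group. The depth of each site is not given, and its part was not tested.

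Outside CCGG the largest share of the variance followed 1 order of the mice. The mean level over these 11559 sites was 44.2%, 45.5% and 45.7% in DIO-HFD replicates 2, 3 and 4 and 65.1% in DIO-HFD replicate 1. It was 60.8%, 60.6% and 52.2% in CON-LFD mice and 63.3%, 53.7% and 57.6% in DIO-LFD mice. DIO-VSG mice had a mean of 61.9% ± 0.654 (SD, n = 4). Replicate 1 thus stood apart from its group and was the highest of the 14 mice, while the other 3 DIO-HFD mice were the lowest. These 3 mice had the 3 lowest levels at 5009 of the sites outside CCGG (43.3%) and the 3 highest at 894 (7.73%). The first principal component held 68.1% of the variance between mice outside CCGG and 25.7% within it. With CCGG sites included, it held 57.8% over all variable sites. It held 35.6% over the 58016 other autosomal sites, where the order of the mice was similar. Of the variable sites outside CCGG, 55.5% correlated above 0.8 with the axis of the mice and 9.19% below -0.8, and the rest did neither.

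Within CCGG the means of the mice were closer. They were 52.6%, 52.8% and 52.8% in DIO-HFD replicates 2 to 4 and 58.7% in replicate 1, and the other 10 mice lay between 53.4% and 57.3%. Over the other autosomal sites DIO-HFD replicate 1 was also the highest mouse, at 65.6%, and replicates 2 to 4 the lowest, at 59.7%, 60.1% and 59.9%. Replicates 2 to 4 held the 3 lowest levels at 12.1% of these sites, against 36.8% of all variable sites.

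**Figure D4:**
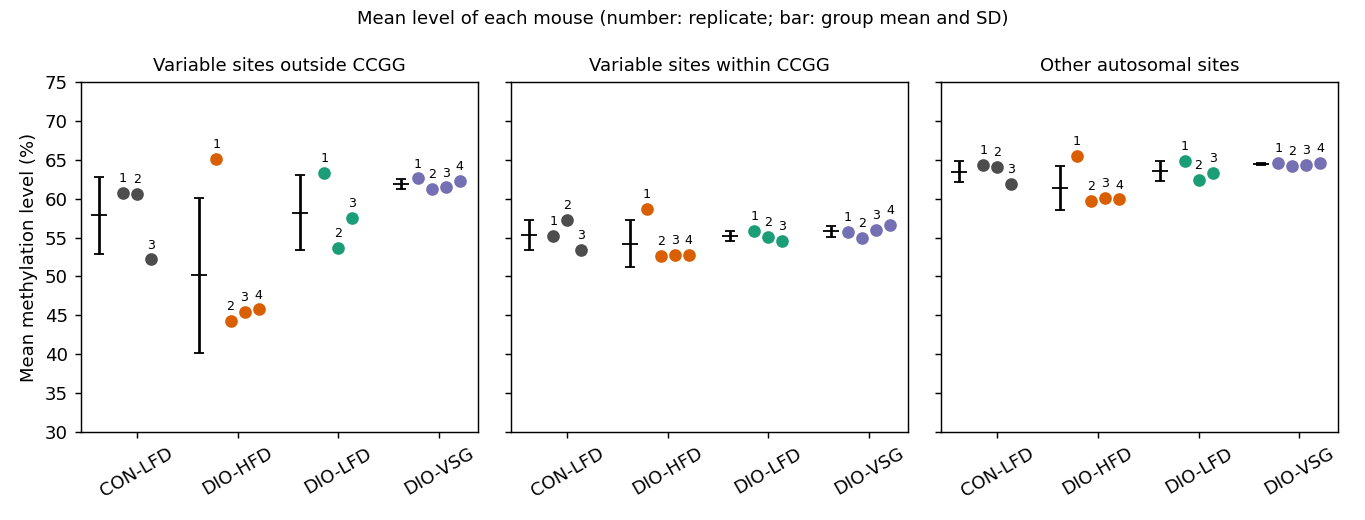
The y axis gives the mean methylation level (%) of each mouse over variable sites outside CCGG, variable sites within CCGG and other autosomal sites, with the replicate number at each point and the group mean and SD as a bar. Outside CCGG, DIO-HFD replicates 2 to 4 lay between 44.2% and 45.7% and replicate 1 at 65.1%.

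Most of the variance of the variable sites lay within groups. The share of a site's sum of squares that lay between the 4 groups had a median of 35.7% over variable sites and 27.4% over the other sites. With 4 groups and 14 mice, the degrees of freedom alone give 23.1%. The share was above 50% at 2197 variable sites (15.2%), against 12.4% of all autosomal sites, and above 80% at 19. The median SD within a group was 0.151 in DIO-HFD mice, 0.101 in DIO-LFD mice, 0.0891 in CON-LFD mice and 0.0514 in DIO-VSG mice. Without DIO-HFD replicate 1 the median SD of the other DIO-HFD mice was 0.0568. The median share between groups was then 62.99%, against 25% from the degrees of freedom, and 9146 variable sites (63.2%) were above 50%. Over the other autosomal sites the median was then 38.7%, with 35.5% of sites above 50%. For sites outside CCGG the median without this mouse was 68.3%, and within CCGG it was 30.1%. The labels give no reason to leave out replicate 1, and both values are therefore given. Its mean over the variable sites was above that of every DIO-VSG mouse, and its label could not be checked here against another readout, so every DIO-HFD value that includes it carries this doubt.

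The 5 sites with the largest share between groups held 2 outside CCGG and 3 within it. The first lies in a coding exon of Spen, a transcriptional corepressor gene, although the table names Zbtb17 as nearest. It was at 54.2%, 62.8%, 54.9% and 59.0% in DIO-HFD mice and at 33.6%, 32.1%, 33.2% and 31.4% in DIO-VSG mice. CON-LFD mice lay between 36.7% and 51.4% and DIO-LFD mice between 38.1% and 43.4%, and DIO-HFD mice were above all others. Its share between groups was 88.3%. The site in an intron of Rab3a, a GTPase of vesicle release, ran the other way, between 51.6% and 56.2% in DIO-HFD mice and between 67.3% and 83.7% in the other 10 mice. The CCGG site at Nudt9, an ADP-ribose pyrophosphatase gene, was at 36.7% to 40.6% in DIO-HFD mice and at 0.99% to 8% in DIO-VSG mice. At Tmem9b all 4 DIO-VSG mice were at 0%, 1 DIO-LFD mouse was at 0%, and DIO-HFD mice lay between 38.8% and 44.7%. At Tanc2, a scaffold protein gene, DIO-VSG mice lay between 16.7% and 29.4% and all other mice were at 32.3% or more. The 5 sites were picked for their share between groups. In the limma test given below, the adjusted p over the 4 groups was 0.511 at the Spen, Rab3a, Nudt9 and Tanc2 sites. With single mice left out, this limma adjusted p ranged from 0.0123 to 0.802 over these 4 sites. It was under 0.05 only without DIO-HFD replicate 1.

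Few variable sites passed a test between groups. The test was limma on log2 ratios of methylated to unmethylated level (M) over 65610 sites, with Benjamini-Hochberg adjustment and a threshold of 0.05. It called 1 variable site between DIO-LFD and DIO-HFD, where 0.00305% of all tested sites were called, and 1 between DIO-VSG and DIO-HFD, where 0.00305% were called. It called 0 between CON-LFD and DIO-HFD, where 0% of all were called. An unadjusted limma p under 0.05 was found there at 1658 variable sites (11.5%) and at 7.76% of all tested sites. It called 0 between DIO-VSG and DIO-LFD, where 0.00305% of all were called. There 512 variable sites (3.54%) and 3.98% of all tested sites had an unadjusted limma p under 0.05. With each pair fitted alone, limma called 1 variable site, within CCGG, between CON-LFD and DIO-HFD, where 0.00305% of all tested sites were called. It called 1 other variable site, outside CCGG, between DIO-VSG and DIO-LFD, where 0.032% of all were called. Over the 4 groups together 1 variable site was called, where 0.0061% of all were called. For DIO-VSG against DIO-HFD, 6947 variable sites (48.0%) had an unadjusted limma p under 0.05, as did 25% of all tested sites. Of these variable sites 5670 were higher in DIO-VSG mice, as were 20.2% of all tested sites. The main direction depended on scaling over all tested sites but not over the variable sites. With limma on levels centred on the median of each mouse, 6272 variable sites had such a p, where 23.8% of all did, and 4238 of them were higher in DIO-VSG mice, where 7.46% of all were. Over all tested sites 13250 of 16433 were higher before centring and 4892 of 15626 after it. The centred fit also used levels in place of M.

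The site called with the 4 groups in 1 fit was the same in its 3 calls and lies 30 bp upstream of the transcript start of Ctnnb1, which encodes beta-catenin, a protein of cell adhesion and of Wnt signaling. It was at 27.6%, 19.3%, 19.7% and 13.5% in DIO-HFD mice and at 14.3%, 30.4% and 11.8% in CON-LFD mice. It was at 0% in all 3 DIO-LFD and all 4 DIO-VSG mice. M was changed by -4.67 ± 0.39 (SE) in DIO-LFD relative to DIO-HFD (limma adjusted p = 0.0014) and by -4.67 ± 0.36 (SE) in DIO-VSG relative to DIO-HFD (limma adjusted p = 0.000349). The site lies within CCGG, and the other end of its fragment, 172 bp away, lay between 36.05% and 52.4% in all mice. At 0% M is set by the offset added to both levels, so the size of the changes in M depends on it. With an offset of 0.1, the change between DIO-LFD and DIO-HFD was -1.86 ± 0.31 (SE, limma adjusted p = 0.436). This call was also lost with limma on the level (adjusted p = 0.397), eBayes with trend and robust (0.181) and centring (0.38). It was kept whichever mouse was left out. It was also kept with the pair fitted alone (limma adjusted p = 0.0429), the replicate number as a block (0.0279) and no SD filter (0.00145). The cause of the losses was not tested.

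Among the sites named by the smallest p, leaving out genes named already, others did not pass with all mice. The site in Nkiras1, an inhibitor of NF-kB signaling, was at 0% in all 4 DIO-VSG mice and between 42.7% and 48.5% in DIO-HFD mice (limma adjusted p = 0.15). It passed with the pair fitted alone (limma adjusted p = 5.95e-05), without DIO-LFD replicate 2 (2.72e-07) and without DIO-HFD replicate 1 (0.00341). Metap1 was at 0%, 2.33%, 0% and 0% in DIO-VSG mice and between 38.3% and 52.5% in DIO-HFD mice (limma adjusted p over the 4 groups = 0.296). It passed without DIO-LFD replicate 2 (limma adjusted p = 8.68e-05) and without DIO-HFD replicate 1 (0.0135). Tmem9b, described above, had an adjusted p of 0.212 in the same limma test. Gdf6, a growth factor gene of the bone morphogenetic protein family, lay 321130 bp from its site, which was at 100% in all DIO-VSG mice and at 78.5%, 88.7% and 60.0% in DIO-LFD mice (limma adjusted p = 0.189).

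Without DIO-HFD replicate 1 the number of calls was of another order. Limma then called 8807 variable sites (60.9%) between DIO-VSG and DIO-HFD, where 34.4% of all tested sites were called, and 7513 of them were higher in DIO-VSG mice, as were 28.8% of all tested sites. It called 5085 (35.2%) between DIO-LFD and DIO-HFD, where 14.6% were called, and 4475 (30.9%) between CON-LFD and DIO-HFD, where 12% were called. Between DIO-VSG and DIO-LFD it called 0 variable sites, where 0.00457% of all were called, and 1132 (7.83%) had an unadjusted limma p under 0.05, against 6.77% of all tested sites. Over the 4 groups it called 6109 variable sites (42.2%), where 17.2% of all were called. These comparisons share the same 3 DIO-HFD mice. The variable sites were chosen for a large SD over mice that include these. Shares above those of all tested sites are therefore favored by the rule.

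Variable sites lay close together. The next listed site was also variable for 65.3% of variable sites with a neighbor within 10 bp and for 53.6% over 10 to 50 bp away. It was so for 42.9% over 50 to 100 bp, 48.3% over 100 to 200 bp and 15.1% over 1000 to 10000 bp away. Variable sites made up 19.96% of all autosomal sites, but this is not the rate within a distance class. At least 1 site was variable in 3780 of 9789 pairs within 10 bp and in 1959 of 8730 pairs over 1000 to 10000 bp apart. Pairs of variable sites outside CCGG had a median correlation over mice of 0.956 within 10 bp, 0.946 over 50 to 100 bp apart, 0.703 over 200 to 500 bp apart and 0.343 over 1000 to 10000 bp apart. With CCGG sites included, the median was 0.115 over 100 to 200 bp apart, the distance of many fragment ends. Sites on 1 fragment share reads.

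**Figure D5:**
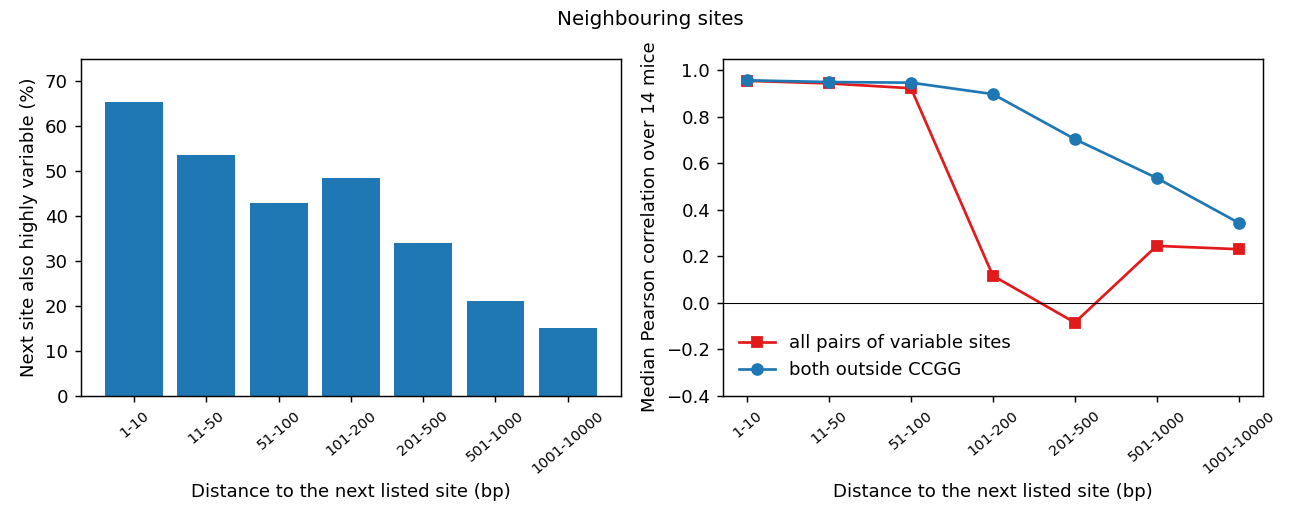
The left panel gives the percent of highly variable sites whose next listed site was also highly variable, by distance (bp), and the right panel the median correlation of their levels over 14 mice. The share fell from 65.3% within 10 bp to 15.1% beyond 1000 bp, and the correlation over 100 to 200 bp apart was 0.897 for pairs outside CCGG and 0.115 for all pairs.

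Runs were formed of variable sites that follow each other in the table at most 100 bp apart. There were 9491 runs, of which 7097 were single sites and 2394 held 2 or more. Runs of 2 or more held 7367 variable sites (50.9%), and 308 runs held 5 or more. The longest run held 19 sites in 184 bp, in exons near Gm13205. Its mean level was 71.96% in DIO-HFD replicate 1 and 37.1%, 43.3% and 39.1% in replicates 2 to 4, and 63.4% ± 7.27 (SD, n = 4) in DIO-VSG mice. The run of 17 sites in an island exon near Eva1b moved the same way, with 73.4% in replicate 1, 21.5%, 24.0% and 28.1% in replicates 2 to 4 and 60.0% ± 1.30 (SD, n = 4) in DIO-VSG mice. The Plekhh3 run, whose sequence is given above, moved the opposite way. It was at 25.7% in replicate 1, at 72.3%, 79.3% and 75.6% in replicates 2 to 4, and at 35.6% ± 3.05 (SD, n = 4) in DIO-VSG mice. CON-LFD mice lay at 36.3%, 34.3% and 53.5% there. The run near Mir6991 did not share this pattern, with 76.4% in replicate 1 and 48.9%, 67.0% and 71.2% in the other DIO-HFD mice.

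Variable sites were assigned to 4923 genes of 12086 with a site, and 2482 genes had 1. At 261 genes there were 10 or more. Agap2, which encodes a GTPase-activating protein, had the most, with 78 of its 106 sites. Their mean was 69.0% in DIO-HFD replicate 1, 24.2%, 31.8% and 30.1% in replicates 2 to 4, and 63.2% ± 2.11 (SD, n = 4) in DIO-VSG mice. Mir6991 had 69 of 86 sites and Gm13205 51 of 113. Hspg2, which encodes the basement membrane proteoglycan perlecan, had 50 of 77, all in introns. Their mean was 73.7% in DIO-HFD replicate 1, between 33.8% and 37.7% in replicates 2 to 4, and 70.7% ± 0.903 (SD, n = 4) in DIO-VSG mice. Runx3, a transcription factor gene of T cells, had 46 of 74. Its mean was 63.5% in DIO-HFD replicate 1, 24.4% to 28.5% in replicates 2 to 4 and 38.4% to 55.2% in CON-LFD mice. At all 5 genes DIO-HFD replicates 2 to 4 were below the DIO-VSG mice.

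Lists of genes that mark cell types, or that are imprinted or of the Hox family, held few sites. Against 19.96% of all autosomal sites, variable sites made up 15 of 38 sites of lymphocyte markers (39.5%) and 13 of 36 of endothelial markers (36.1%). They made up 48 of 328 sites of imprinted genes (14.6%), 40 of 317 of Hox genes (12.6%) and 7 of 55 of epithelial markers (12.7%). They made up 16 of 164 of adipocyte and lipid metabolism genes (9.76%) and 2 of 27 of macrophage markers (7.41%). Sites of 1 gene are close together, and 13 of the 15 lymphocyte sites are assigned to Cd37 and Lat. The lists were chosen with earlier results of these data known, so their shares are a description only.

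Members of the lymphocyte list moved in opposite directions. Lat encodes an adaptor of T cell receptor signaling. Its 4 variable sites, just downstream of the transcript start, averaged 20.4% in DIO-HFD replicate 1 and 68.0%, 71.1% and 63.8% in replicates 2 to 4. CON-LFD mice averaged 30.4%, 31.3% and 55.0%, and the mean of DIO-VSG mice was 26.1% ± 1.63 (SD, n = 4). Cd37 encodes a tetraspanin of leukocytes. The 9 variable sites assigned to it lie upstream of the gene, and the one with the largest SD lies in an untranslated exon of Slc6a16. These 9 sites averaged 76.1% in replicate 1, 31.3%, 31.02% and 39.8% in replicates 2 to 4, and 67.8% ± 2.15 (SD, n = 4) in DIO-VSG mice. The murine 4th mammary fat pad holds the inguinal lymph node. Over the 15 variable sites of the lymphocyte list, DIO-HFD replicates 2 to 4 held the 3 lowest levels at 2 and the 3 highest at 3. The mean of the list was 44.2%, 47.9% and 51.2% in these mice, between 48.8% and 54.7% in DIO-VSG mice and 44.5% in CON-LFD replicate 3, so the groups overlapped. The part of cell composition in the order of the mice was not tested.

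The leading genes of the other lists differed among themselves. Hoxa5, a developmental transcription factor gene, had 16 of 23 sites, with a mean of 66.0% in DIO-HFD replicate 1, 24.4%, 41.0% and 35.1% in replicates 2 to 4 and 63.6% ± 4.84 (SD, n = 4) in DIO-VSG mice. The imprinted gene Mcts2 had 9 of 9 sites, at 80.01% in replicate 1, 44.3%, 47.0% and 45.3% in replicates 2 to 4 and 78.4% ± 2.997 (SD, n = 4) in DIO-VSG mice. Gnas, also imprinted, had 11 of 105 sites, at 37.3% in replicate 1 and 36.4%, 27.9% and 29.7% in replicates 2 to 4. DIO-VSG mice had a mean of 37.1% ± 1.76 (SD, n = 4), and replicates 3 and 4 lay below all of them. At the Gnas site of largest SD, DIO-HFD replicate 1 was at 82.8% and replicates 2 to 4 at 40%, 42.2% and 38.7%. Its variable sites thus did not all move alike. Krt8, a keratin gene of luminal epithelium, had 2 of 4 sites, at 41.1% in replicate 1 and 76.8%, 73.2% and 58.5% in replicates 2 to 4. Cldn4, a tight junction gene of the same epithelial list, had 4 of 12 sites and went the other way, at 66.5% in replicate 1 and 30.8%, 43.2% and 39.96% in replicates 2 to 4. So did Egfl7, an endothelial gene with 5 of 6 sites, at 70.5% in replicate 1 and 30.5%, 37.9% and 43.8% in replicates 2 to 4. Prdm16, a regulator of brown and beige adipocytes, had 6 of 34 sites, at 45.6% in replicate 1 and 47.3%, 55.6% and 45.6% in replicates 2 to 4. This mean also covers sites that did not move alike. At the Prdm16 site of largest SD, replicate 1 was at 81.5% and replicates 2 to 4 at 38.7%, 37.8% and 30%.

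The choice of sites depended on single mice in part. Of the 14464 sites, 8477 (58.6%) met the rule whichever mouse was left out, and 5987 (41.4%) failed it without some 1 mouse. The number of sites was lowest, at 12834, without DIO-HFD replicate 2 and highest, at 15159, without CON-LFD replicate 2.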

How the data were processed

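RRBS was performed on the mammary fat pad opposite the tumor of 14 mice. Per the methods, the authors used Bismark (build mm10) for alignment, samtools for sorting and methylKit for the calls, and left out outlier mice of CON-LFD and DIO-LFD. They deposited the methylation level as a fraction from 0 to 1, with no read counts, so depth is unknown and no interval was computed; 10151 of 75761 sites have an SD under 0.05. Flags and nearest genes are the authors'; sequence context was read from GRCm38.

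Sites with an SD of at least 0.1 on 19 autosomes were taken. M = log2((level + 0.01)/(1 - level + 0.01)) was fitted for the 4 groups in 1 model with limma 3.58.1 (R 4.3.3) over 65610 sites with an SD of at least 0.05, and the fit was tested on simulated data. Other values were computed in Python 3.11.15 (NumPy 2.4.6, pandas 2.3.3, SciPy 1.17.1) and drawn with Matplotlib 3.10.9. For differential methylation the methods refer to earlier work and do not name the test. The labels do not say more of the replicates than that they are separate mice.

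The sites, the 7 gene lists and the tests were chosen with earlier results of these data known. Sites were named by rule: the 8 largest SDs, the 5 longest runs, the 5 largest shares of variance between groups, the smallest p of each comparison among genes not yet named by shares or p, the 5 genes with the most variable sites, the 2 nearest sites on each side of the limit, and the 2 leading genes of each list. Not every named site is reported.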

Additional observations from a re-analysis of the deposited data

Results flagged for a closer look

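In groups of 4 mice, a mouse was noted where its gap to the nearest other mouse, divided by the range of the group, was above Dixon's 95% critical value for 4 samples. Of 90 such groups 18 were noted, where chance gives about 1 in 20, and in 11 the mouse was DIO-HFD replicate 1. The sites were chosen for a large SD over these same mice and the measures share sites and mice, so the count cannot be read against that rate.

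DIO-HFD replicate 1 stood apart in the mean level over all variable sites (63.8%, against 45.9% to 47.1% in the other DIO-HFD mice, ratio 0.931), over those within CCGG (0.975) and over those outside it (0.927). It did so in the runs near Plekhh3 (0.87) and Eva1b (0.872). It did so in the means of Agap2 (0.83), Hspg2 (0.902), Runx3 (0.897), Lat (0.855) and Mcts2 (0.925), and at the Nudt9 site (0.842), where its 36.7% was within 4 percentage points of its group.

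Other mice stood apart by small amounts, except at Sox17. DIO-HFD replicate 3 was lowest at the Tanc2 site (41.1%, ratio 0.881) and at the Tmem9b site (38.8%, 0.939), and DIO-HFD replicate 4 was lowest at the Nkiras1 site (42.7%, 0.886). DIO-VSG replicate 2 was at 2.33% at the Metap1 site, where the others were at 0% (ratio 1), and was highest over the variable sites of Cldn4 (61.7%, 0.841). DIO-VSG replicate 3 was lowest over those of Runx3 (51.02%, 0.881). DIO-VSG replicate 4 was at 52.9% over the variable sites of Sox17, a transcription factor gene of endothelium, where the other DIO-VSG mice lay between 34.0% and 34.6% (ratio 0.966).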

How the results depend on the processing

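One mouse decided most results between groups. Leaving out each mouse in turn gave 0 to 4475 variable sites called between CON-LFD and DIO-HFD, 1 to 5085 between DIO-LFD and DIO-HFD, 1 to 8807 between DIO-VSG and DIO-HFD, and 1 to 6109 over the 4 groups, with the highest values without DIO-HFD replicate 1, where 7852, 9551, 22557 and 11316 of all tested sites were called. Between DIO-VSG and DIO-LFD the range was 0 to 6, with 6 without DIO-LFD replicate 2 (13 of all tested sites). Without that mouse 2, 18 and 6 variable sites were called for CON-LFD, DIO-LFD and DIO-VSG against DIO-HFD and 17 over the 4 groups (6, 36, 10 and 38 of all). The share of variable sites with over 50% of variance between groups ranged from 7.94% to 63.3%, the share in islands from 21.5% to 25.1%, and the median share between groups was 62.99% without DIO-HFD replicate 1. For DIO-LFD against DIO-HFD and over the 4 groups, 0 variable sites were called with an offset of 0.1 in M, limma on the level, eBayes with trend and robust, centring of each mouse on its median, or, chosen after seeing the data, sites outside CCGG alone. For DIO-VSG against DIO-HFD the counts were 3 with the offset of 0.1, 3 on the level, 0 with trend and robust, 5 with centring, 21 with the pair fitted alone and 0 outside CCGG, where 4, 3, 0, 5 and 47 of all tested sites were called in the first 5 of these. The pair fitted alone gave 1 for CON-LFD against DIO-HFD and 1 for DIO-VSG against DIO-LFD (2 and 21 of all). Where these changed a call, the cause was not tested. The replicate number as a block gave 0, 1, 1, 0 and 1 calls, as without it. Of 19 pairs of mice with the same number, 4 had deviations correlated above 0.1, with the highest at 0.202. The median was 0.0341 in these 19 pairs and -0.0163 in 54 other pairs of mice from different groups. Whether mice with the same number share more than the number was not tested.

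With an SD of at least 0.05, 0.15 or 0.2 the rule took 62521, 3426 or 431 sites, with 21.2%, 27.6% or 39.4% in islands and 12.7%, 16.2% or 16.7% with over 50% of variance between groups. Centring gave 28.0% and 16.3%, the pooled SD within groups 24.97% and 7.54%, sites outside CCGG (chosen after seeing the data) 17.03% and 16.6%, and all chromosomes 24.1% in islands. The median share between groups was 34.5% in M and 37.3% outside CCGG. Among neighboring pairs with a variable site at most 100 bp apart, both were variable in 38.4%, against 40.8% within 50 bp and 36.5% within 500 bp. Depth, which is not given, limits what the levels of single sites can show.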
